A study of Homo sapiens with 12 samples.

Results

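The sterol regulatory element-binding protein (SREBP) machinery was followed in triple-negative breast cancer (TNBC) cells through 7 genes. They are SREBF1 and SREBF2, which encode the transcription factors SREBP-1 and SREBP-2, SCAP, which encodes the sterol sensor that escorts them, INSIG1 and INSIG2, which encode the proteins that retain the escort, and MBTPS1 and MBTPS2, which encode the site-1 and site-2 proteases. The genes were selected by symbol for their function, and all 7 were found among the 16491 genes listed for HCC70, the 18217 listed for MDA-MB468 with XY018 and atorvastatin (ATV), and the 57909 entries listed for MDA-MB468 with GSK805. RNA-seq had been run on 12 samples of HCC70 and MDA-MB468, human TNBC cell lines, after 24 h of treatment, and each condition has 1 library. The 5 treatments of HCC70 were vehicle, XY018 (a nuclear receptor antagonist) at 1.25 or 2.5 μM, the statin ATV at 1.25 μM, and XY018 at 1.25 μM with ATV at 1.25 μM. MDA-MB468 was given the same set, and for their combination the dose of ATV, 1.25 μM, stands in the column heading of the data and not in the label. In another experiment MDA-MB468 cells received vehicle or GSK805, an antagonist of the same receptor, at 2.5 μM. Both lines were at passages 6 to 9 and were grown with fetal bovine serum, which carries lipoprotein cholesterol. The labels give RPMI medium for both, with insulin for MDA-MB468, while the methods of the study give DMEM for MDA-MB468. The labels do not name the vehicle solvent.

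SREBPs are made as membrane proteins of the endoplasmic reticulum (ER), where they are bound to SCAP. When ER cholesterol is low, SCAP carries them in COPII vesicles to the Golgi, the site-1 and site-2 proteases release the part that enters the nucleus, and that part activates genes of cholesterol and fatty acid synthesis. When sterols are plentiful SCAP is held in the ER by INSIG proteins, and INSIG1 is itself an SREBP target, which closes a feedback loop. The values reported here are mRNA levels, which do not measure the cleavage of SREBPs or their amount in the nucleus.

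Levels are given as FPKM, the fragments of a gene scaled by its transcript length and the fragments of the library. The change of a gene is the log2 of its treated over its vehicle FPKM after 0.1 was added to each, and every treated library was set against the vehicle of its own experiment, since the 3 tables of values were normalized separately. Changes of 1.5-fold or more are called lower or higher, among genes at 1 FPKM or above in either library. No condition was replicated within a line, so no difference below has been checked against replicate error, and no p-values or SDs are given. The depth, estimated from the spacing of low FPKM values, was 8.98e+06 to 9.98e+06 fragments per HCC70 library, 1.85e+07 to 1.97e+07 per MDA-MB468 library with XY018 and ATV, and 8.38e+06 and 8.68e+06 in the GSK805 pair. The 7 genes had between 137 estimated fragments (MBTPS2) and 14195 (SREBF2). Intervals in brackets are 95% counting intervals from these fragments and leave out the variation between cultures. Fewer cells of a kind and less RNA per cell cannot be told apart in such samples. All 8 epithelial markers were at 1 FPKM or above in each of the 3 tables, and between 2 and 5 of them, all keratins, were lower in every comparison with an antagonist (5 with XY018 at 2.5 μM in MDA-MB468, 4 with GSK805) and 0 with ATV. Of all genes, 2.66 to 16.6% were lower in the comparisons with an antagonist (14.5% and 16.6% in the 2 named). With ATV 1.32% were lower in HCC70 and 0.803% in MDA-MB468. The 10 most abundant genes held 46.5% and 50.1% of all FPKM in the GSK805 experiment, against 6.72 to 16.6% elsewhere. ESR1, the estrogen receptor, was at 0.37 to 0.67 FPKM in the XY018 and ATV libraries of both lines, but at 1.77 with vehicle and 5.67 with GSK805 in the GSK805 experiment. PGR, the progesterone receptor, was not listed for HCC70 and was listed at 0 in every MDA-MB468 library. ERBB2 (HER2) ran from 25.3 to 57.7 FPKM over the 12 libraries. Of the 7 markers of other cells, 4 reached 1 FPKM in HCC70, 3 in the XY018 and ATV experiment of MDA-MB468 and 2 in the GSK805 experiment. Among them PTPRC, the pan-leukocyte marker, stayed at or below 1.06 FPKM. The summed level of these markers was 83.1 to 106 FPKM in HCC70, mostly CD68, and 10.3 to 26.3 and 16.2 to 30.4 FPKM in the MDA-MB468 experiments. CD68 rose in MDA-MB468 with XY018, with both compounds and with GSK805 (1.37, 1.86, 1.79 and 1.15 on the log2 scale). Of all genes, 9.73%, 14.1%, 13.1% and 17.6% were higher in these 4 comparisons. COL1A1, a stromal collagen, rose in the same 4 comparisons (0.75, 0.72, 0.76 and 0.72), and PTPRC rose with XY018 at 2.5 μM, to its highest level (0.73). The part of these in the results was not tested.

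Promoter sequences of all 7 genes were found in the RefSeq table for GRCh38.p14, from 250 bases before the transcript start to 50 bases after it, and 3 are shown: INSIG1, which passed 1.5-fold in 8 of the 9 comparisons, and the pair of SREBP genes. Capitals mark matches on either strand to the sterol regulatory element TCACNCCAC, the E-box CACGTG, the CCAAT box, which is the NF-Y motif CCAAT, and the GC box GGGCGG, the Sp1 motif. The promoter of INSIG1 lies on the plus strand at chr7:155297628-155297927, that of SREBF2 on the plus strand at chr22:41832855-41833154, and that of SREBF1 on the minus strand at chr17:17836937-17837236.
INSIG1: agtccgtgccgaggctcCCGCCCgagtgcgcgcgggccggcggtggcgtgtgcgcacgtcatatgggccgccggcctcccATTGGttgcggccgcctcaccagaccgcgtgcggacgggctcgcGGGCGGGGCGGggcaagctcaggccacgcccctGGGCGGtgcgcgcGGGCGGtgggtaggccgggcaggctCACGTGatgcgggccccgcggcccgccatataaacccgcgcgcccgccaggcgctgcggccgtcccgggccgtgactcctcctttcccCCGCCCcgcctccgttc
SREBF2: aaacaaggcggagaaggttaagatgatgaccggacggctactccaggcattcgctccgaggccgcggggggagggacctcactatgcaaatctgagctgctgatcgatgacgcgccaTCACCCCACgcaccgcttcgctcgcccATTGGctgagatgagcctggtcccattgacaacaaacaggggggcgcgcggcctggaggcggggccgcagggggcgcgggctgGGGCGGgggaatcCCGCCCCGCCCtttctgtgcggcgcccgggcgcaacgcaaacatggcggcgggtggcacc
SREBF1: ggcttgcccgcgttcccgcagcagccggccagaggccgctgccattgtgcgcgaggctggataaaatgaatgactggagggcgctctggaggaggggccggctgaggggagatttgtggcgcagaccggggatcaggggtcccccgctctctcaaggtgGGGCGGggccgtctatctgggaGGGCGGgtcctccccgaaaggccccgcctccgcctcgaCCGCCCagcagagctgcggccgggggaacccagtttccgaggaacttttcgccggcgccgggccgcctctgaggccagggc
SREBF2 was the 1 of the 7 genes whose window held a match to TCACNCCAC, beginning 133 bases before the start. That motif was found in 1.13% of all 35116 promoters of the same length. The SREBF2 window also held a CCAAT box on the opposite strand, beginning 106 bases before the start, and 3 GC boxes, of which the last 2 overlap by a base. INSIG1 held no match to TCACNCCAC in this window, and held an E-box 55 bases before the start, a CCAAT box on the opposite strand and 6 GC boxes, of which a pair beginning 126 and 121 bases before the start overlap. An E-box was also present in SCAP and in 7.26% of all promoters, while CCAAT was present in 34.6% and GGGCGG in 45.0%. The 1 window of SREBF1 held 3 GC boxes and none of the other motifs. SREBF1 encodes both SREBP-1a and SREBP-1c, and any other start of the gene was not searched. The ROR core AGGTCA (13.8% of all promoters) and its extended form TAGGTCA (1.85%), which contains it, were not found in the windows of the 7 genes. Of the 9 SREBP-2 type target genes with a promoter in the table, 8 held CCAAT, 9 held GGGCGG, 1 (DHCR7) held AGGTCA and 0 held TCACNCCAC. A match is a run of letters and not a measured binding site.

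SREBF2 was the most abundant of the 7 mRNAs in 11 of the 12 libraries, and the proteases and INSIG proteins showed wide gaps between their paired members. In the vehicle library of HCC70 the order was SREBF2 at 137 FPKM, MBTPS1 at 61.9, SREBF1 at 37.4, INSIG1 at 32.3, SCAP at 18.1, MBTPS2 at 6.51 and INSIG2 at 6.36. In the vehicle library of MDA-MB468 with XY018 and ATV it was SREBF2 at 123 FPKM, MBTPS1 at 48.4, SREBF1 at 41.4, INSIG1 at 30.1, SCAP at 26.8, INSIG2 at 5.02 and MBTPS2 at 4.31. These orders differed only in the last 2 places, where the levels lay close together, from 216 and 276 estimated fragments for INSIG2 and MBTPS2 in HCC70 and 349 and 375 in MDA-MB468. The vehicle library of the GSK805 experiment departed from both, with SREBF1 first at 188 FPKM, SREBF2 at 103, MBTPS1 at 63.2, INSIG1 at 58.6, SCAP at 25.8, INSIG2 at 17.1 and MBTPS2 at 4.01. FPKM is per length, so genes can be compared within a library, and such ratios can be set side by side between experiments, although the GSK805 table uses another, wider annotation.

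**Figure D1:**
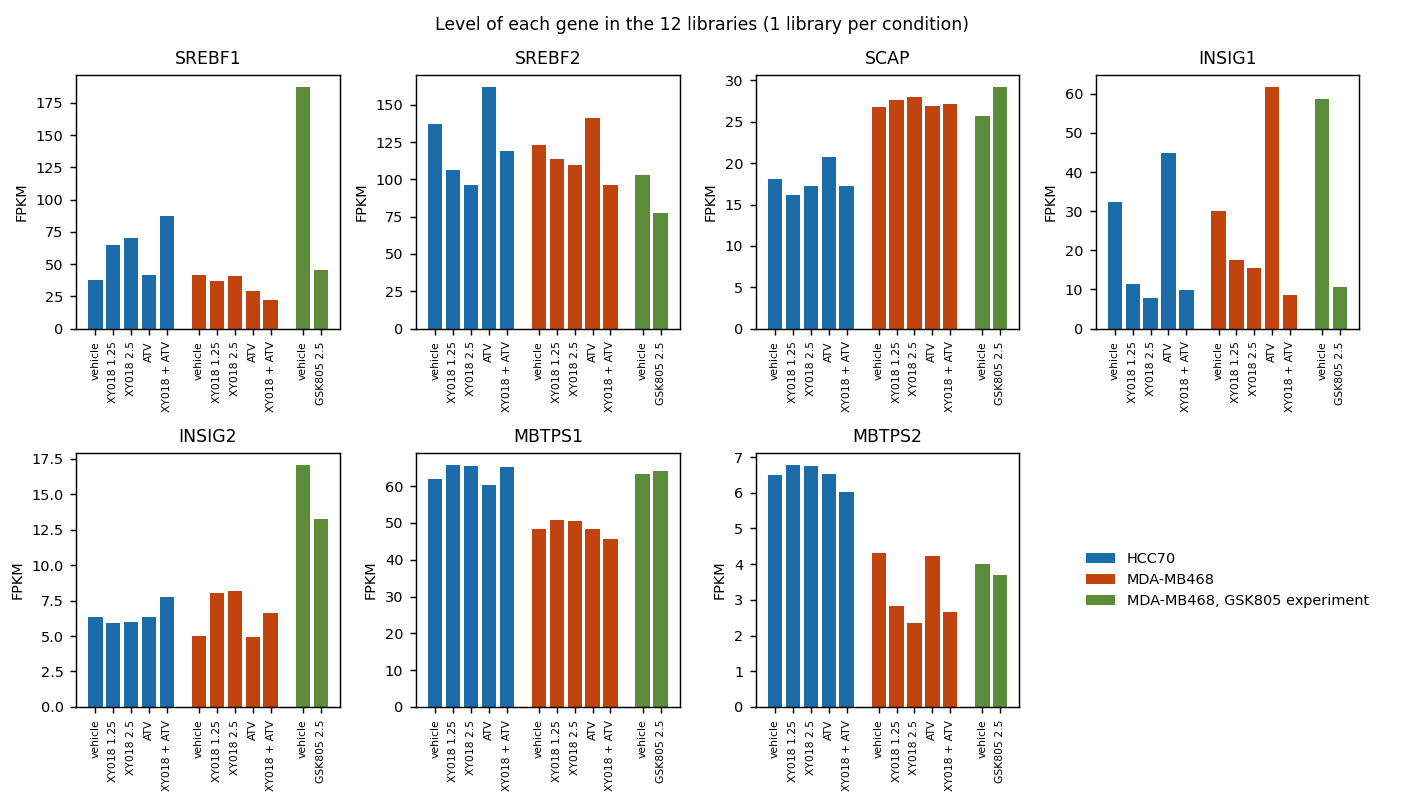
FPKM of the 7 genes (vertical axis, a scale of its own for each gene) in the 12 libraries, coloured by experiment, with 1 bar per library and no error bar because no condition was replicated. INSIG1 is lowest with XY018, with both compounds and with GSK805 and highest with ATV in HCC70 and in MDA-MB468, while SCAP and MBTPS1 change little within an experiment.

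Changes past 1.5-fold were confined in HCC70 to INSIG1 and SREBF1, and in MDA-MB468 they also took in INSIG2 and MBTPS2. In HCC70 with XY018 at 1.25 μM, 1 of the 7 genes was lower, against 2.66% of the 11738 genes compared, and 1 was higher, against 1.93%. At 2.5 μM the counts were again 1 lower and 1 higher, against 3.26% and 2.62% of 11721 genes. With ATV none of the 7 passed in HCC70, where 1.32% of all genes were lower and 2.22% higher. With both compounds 1 was lower (all genes 2.94%) and 1 higher (4.39%). The passing genes were INSIG1, lower, and SREBF1, higher, in each of these 3 comparisons. In MDA-MB468 a larger share of all genes changed with the antagonists. XY018 at 1.25 μM gave 2 lower genes, INSIG1 and MBTPS2, against a background of 8.39%, and 1 higher gene, INSIG2, against 9.73%. The same 3 genes passed in the same directions at 2.5 μM, where 14.5% of all genes were lower and 14.1% higher. ATV gave 0 lower (0.803% of all genes) and 1 higher, INSIG1 (1.37%). With both compounds SREBF1, INSIG1 and MBTPS2 were lower (12.2% of all genes) and none was higher (13.1%). GSK805 gave 2 lower, SREBF1 and INSIG1, against 16.6% of 19952 genes, and 0 higher, against 17.6%. The median of all genes was within 0.03 of 0 on the log2 scale in each of the 9 comparisons, and the median of the 7 genes ran from −0.37 with GSK805 to 0.16 with ATV in HCC70.

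**Figure D2:**
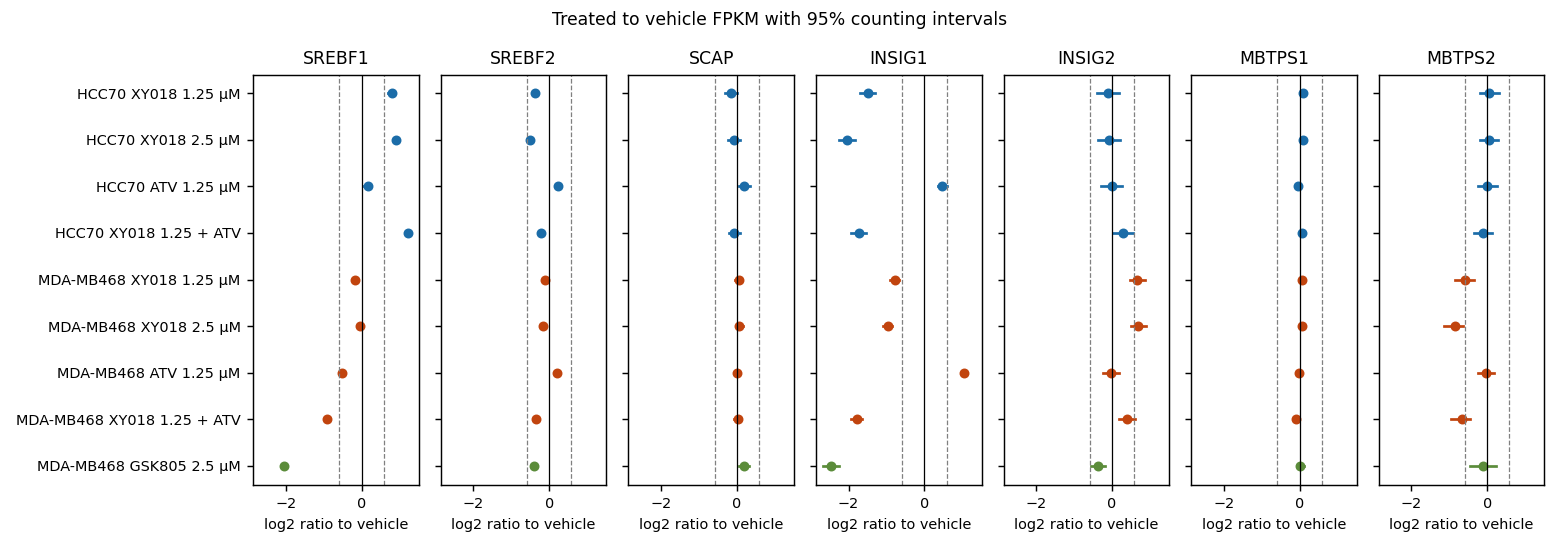
Log2 change against vehicle (horizontal axis) for each gene in the 9 comparisons, with 95% counting intervals as horizontal lines and 1.5-fold marked by dashed lines. INSIG1 passes the lower line in 7 comparisons and the upper line with ATV in MDA-MB468, SREBF1 lies on opposite sides of 0 in the 2 cell lines, and SREBF2, SCAP and MBTPS1 stay between the dashed lines.

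The 2 SREBP genes moved differently. SREBF1 (chr17:17713713-17740316 on the minus strand, GRCh37, with 3 RefSeq transcripts) encodes SREBP-1c, which favours fatty acid genes, and SREBP-1a, and its FPKM pools these forms. In HCC70 it stood at 37.4 FPKM with vehicle, 64.9 and 69.9 with XY018 at 1.25 and 2.5 μM, 41.9 with ATV and 87.6 with both. All 3 libraries with XY018 were above the 2 without it. The log2 ratios were 0.79 (0.71 to 0.88), 0.90 (0.82 to 0.99), 0.16 (0.07 to 0.26) and 1.23 (1.15 to 1.31), and with both compounds the level was 2.34 times that of vehicle, a rise exceeded by 0.619% of all genes. In MDA-MB468 the same treatments gave 41.4, 37.0, 40.6, 28.9 and 21.9 FPKM. XY018 alone left SREBF1 within 1.5-fold there (−0.16 and −0.03), ATV gave −0.52 (−0.59 to −0.45), which did not reach the threshold, and both compounds lowered it 1.89-fold (−0.92, −0.999 to −0.84). The difference between the lines, MDA-MB468 minus HCC70, was −0.96 (−1.06 to −0.85) at 1.25 μM XY018, −0.93 (−1.04 to −0.83) at 2.5 μM and −2.14 (−2.26 to −2.03) with both compounds. These differences exceed counting error by far, and with 1 library per condition they were not tested against the spread between cultures.

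With GSK805 SREBF1 was at 45.5 FPKM, against 188 in its vehicle, a 4.11-fold fall (−2.04, −2.12 to −1.97). The treated value lay near the 41.4 FPKM of the other MDA-MB468 vehicle, which comes from a separately normalized experiment with another annotation. Library, annotation and experiment cannot be told apart in that comparison. The GSK805 vehicle exceeded the other vehicle by 2.18 on the log2 scale for SREBF1, by 1.75 for INSIG2 and by 0.96 for INSIG1, while the median of all 11931 genes compared between these tables was 0.56. Against the other vehicle SREBF1 with GSK805 gave 0.14 as deposited and −0.44 relative to the median of all genes (0.58). A fall in SREBF1 past 1.5-fold was thus seen only against the vehicle of its own experiment. INSIG1 stayed lower by either reckoning, at −1.49 as deposited and −2.07 relative to the median.

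SREBF2 (chr22:42229109-42303310 on the plus strand, GRCh37; 1 RefSeq transcript) encodes SREBP-2, the form that favours cholesterol genes, and did not pass 1.5-fold in any of the 9 comparisons, each against its own vehicle. Against the other MDA-MB468 vehicle it did pass with GSK805, at −0.67 as deposited and −1.24 relative to the median of all genes. HCC70 held 137 FPKM with vehicle, 106 and 96.0 with the rising doses of XY018, 162 with ATV and 119 with both. MDA-MB468 held 123, 114, 110, 141 and 96.3 in that order, and the GSK805 pair 103 with vehicle and 77.3 with the antagonist. ATV libraries were the highest of each line and all 7 libraries with an antagonist were below their vehicle. The lowest log2 ratio was −0.52 (−0.57 to −0.46) with XY018 at 2.5 μM in HCC70, followed by −0.41 (−0.48 to −0.34) with GSK805, and the highest was 0.24 (0.19 to 0.29) with ATV in HCC70. Every one of these intervals lay clear of 0, on counting error alone.

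Because the 2 factors share a library, their ratio needs no vehicle. SREBF1 was 0.273 times SREBF2 in the HCC70 vehicle, and 0.612, 0.729 and 0.736 times SREBF2 with the lower and higher dose of XY018 and with both compounds. ATV in HCC70 gave 0.259, close to vehicle. In MDA-MB468 the ratio was 0.338 with vehicle, 0.326 and 0.370 with XY018, 0.205 with ATV and 0.228 with both. All 3 HCC70 libraries with XY018 thus had a higher ratio than vehicle. In MDA-MB468 XY018 alone left it close to vehicle, though at 2.5 μM the counting intervals did not overlap, and both libraries with ATV had a lower ratio. In the GSK805 experiment it was 1.83 with vehicle and 0.589 with GSK805, and that vehicle was the 1 library of 12 in which SREBF1 exceeded SREBF2.

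**Figure D3:**
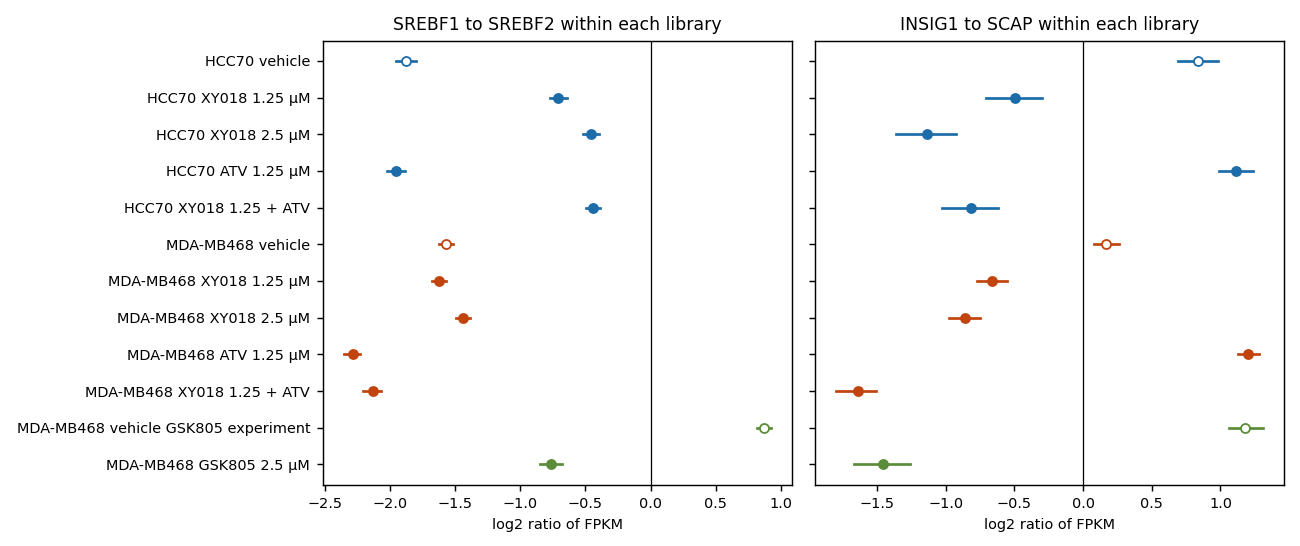
Log2 ratio of SREBF1 to SREBF2 FPKM (left) and of INSIG1 to SCAP FPKM (right) within each of the 12 libraries, with 95% counting intervals; open points are vehicle libraries. SREBF1 exceeds SREBF2 only in the vehicle of the GSK805 experiment, and INSIG1 is above SCAP in the vehicle and ATV libraries and below it in every library with XY018 or GSK805.

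SCAP, the cholesterol-sensing escort (chr3:47455171-47518616 on the minus strand, GRCh37), was among the steadiest of the 7. It ran between 16.1 and 20.7 FPKM in HCC70 and between 26.8 and 28.0 in the XY018 and ATV experiment of MDA-MB468, and the GSK805 pair held 25.8 and 29.3. Its 9 log2 ratios lay between −0.16 and 0.20, and 6 of the intervals included 0. ATV in HCC70 (0.20, 0.05 to 0.34) and GSK805 (0.18, 0.05 to 0.31) gave the highest values, both far inside 1.5-fold.

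INSIG1 (chr7:155089486-155101945 on the plus strand, GRCh37), which holds the SCAP and SREBP complex in the ER, changed most. In HCC70 it was at 32.3 FPKM with vehicle, 11.4 and 7.79 with XY018 at 1.25 and 2.5 μM, 44.8 with ATV and 9.75 with both. All libraries with XY018 lay below vehicle and the ATV library above it. The falls were 2.81-fold (−1.49, −1.69 to −1.31), 4.10-fold (−2.04, −2.26 to −1.83) and, with both, 3.29-fold (−1.72, −1.92 to −1.53). Only 0.145%, 0.154% and 0.195% of all genes had lower ratios in these comparisons. ATV gave 0.47 (0.35 to 0.60), under the threshold, a value exceeded by 3.97% of all genes.

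MDA-MB468 showed the same directions for INSIG1 at other sizes. It was at 30.1 FPKM with vehicle, 17.5 and 15.4 with XY018, 61.8 with ATV and 8.68 with both. XY018 lowered it 1.72-fold (−0.78, −0.90 to −0.67) and 1.94-fold (−0.96, −1.09 to −0.84), less than in HCC70 by 0.71 (0.49 to 0.93) and 1.08 (0.83 to 1.32) on the log2 scale. ATV raised it 2.05-fold (1.04, 0.95 to 1.12), which was 0.56 (0.41 to 0.71) above the value in HCC70. With both compounds it fell 3.44-fold (−1.78, −1.95 to −1.65), and the 2 lines then differed by −0.07 (−0.31 to 0.18), an interval that includes 0. GSK805 lowered INSIG1 from 58.6 to 10.6 FPKM, or 5.47-fold (−2.45, −2.66 to −2.27). Lower ratios than that of INSIG1 were held by 4.61% and 5.81% of all genes at the rising doses of XY018. The shares were 0.915% with both compounds and 2.81% with GSK805, and 0.316% of genes had a higher ratio with ATV. From 1.25 to 2.5 μM XY018 the log2 ratio of INSIG1 was −0.54 (−0.80 to −0.29) in HCC70 and −0.18 (−0.32 to −0.05) in MDA-MB468, both under 1.5-fold.

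Relative to SCAP in the same library, INSIG1 stood at 1.78 times SCAP with vehicle and 2.16 times with ATV in HCC70, and at 0.710, 0.456 and 0.568 times with the lower and higher dose of XY018 and with both. In MDA-MB468 it was 1.12 with vehicle, 2.30 with ATV, 0.633 and 0.552 with XY018 and 0.322 with both. The GSK805 pair gave 2.27 with vehicle and 0.365 with the antagonist. In all 5 libraries without an antagonist INSIG1 was thus the more abundant of the pair, and in all 7 with one SCAP was.

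INSIG2 (chr2:118846028-118868573 on the plus strand, GRCh37; 6 RefSeq transcripts), the paralog of INSIG1 that is not itself a classical SREBP target, moved apart from INSIG1. In HCC70 it was at 6.36, 5.95, 6.02, 6.34 and 7.77 FPKM with vehicle, XY018 at 1.25 and 2.5 μM, ATV and both, and none of these changes passed 1.5-fold. In MDA-MB468 it rose from 5.02 FPKM with vehicle to 8.03 and 8.16 with XY018, 1.59-fold (0.67, 0.48 to 0.88) and 1.61-fold (0.69, 0.50 to 0.90), while ATV left it at 4.93 and both compounds gave 6.64 (0.40, 0.20 to 0.61). With GSK805 it was 13.2 FPKM against 17.1 with vehicle (−0.37, −0.57 to −0.17), a direction that turned against the vehicle of the XY018 experiment (1.38 as deposited, 0.80 relative to the median of all genes). The XY018 rise differed between lines by 0.77 (0.43 to 1.10) at 2.5 μM. INSIG1 was 5.01 times INSIG2 in the HCC70 vehicle and 1.29 times at 2.5 μM XY018, and 5.90 and 1.88 times in MDA-MB468. With GSK805 INSIG1 was 0.805 times INSIG2, the lowest of the 12 libraries and the only one under 1.

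The proteases also parted. MBTPS1, the site-1 protease that makes the first cut in SREBPs (chr16:84087366-84150547 on the minus strand, GRCh37), held 60.2 to 65.8 FPKM in the HCC70 libraries, 45.5 to 50.7 in those of MDA-MB468 given XY018 or ATV and their vehicle, and 63.2 and 64.2 in the GSK805 pair. Its log2 ratios lay between −0.09 and 0.09 in all 9 comparisons, the narrowest range of the 7 genes. MBTPS2, the site-2 protease that makes the second cut within the membrane (chrX:21857735-21903541 on the plus strand, GRCh37), was low throughout. In HCC70 it stayed between 6.02 and 6.78 FPKM. In MDA-MB468 it was 4.31 with vehicle, 2.84 and 2.35 with XY018, 4.22 with ATV and 2.66 with both. The 3 libraries with XY018 lay below the 2 without it. The falls were 1.80-fold at 2.5 μM (−0.85, −1.14 to −0.63), 1.60-fold with both (−0.68, −0.94 to −0.45) and 1.5-fold at 1.25 μM (−0.58, −0.84 to −0.36). The last sits exactly on the threshold, and with 1 FPKM added in place of 0.1 it became −0.47 and that with both compounds −0.54, both under it. GSK805 left MBTPS2 at 3.70 FPKM against 4.01 (−0.11, −0.46 to 0.24). MBTPS1 was 9.38 times MBTPS2 in the HCC70 vehicle and 9.57 times at 2.5 μM XY018, and 11.0 and 20.7 times in MDA-MB468.

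XY018 and ATV together asks whether the antagonist offsets the response of the sterol pathway to a statin. The 3 ratios of a line share its vehicle and are set side by side. For INSIG1 in MDA-MB468 the log2 ratios were −0.78 with XY018 at 1.25 μM and 1.04 with ATV, which sum to 0.26, whereas both together gave −1.78. The measured value minus the sum was −2.04 (−2.22 to −1.86). Against XY018 alone, adding ATV gave a log2 ratio of −1.002 (−1.18 to −0.85), although ATV alone raised INSIG1. In HCC70 the sum was −1.02 and the measured value −1.72, a difference of −0.70 (−0.96 to −0.43), and adding ATV to XY018 gave −0.22 (−0.47 to 0.01). Against ATV alone the combination gave −2.19 (−2.39 to −2.01) in HCC70 and −2.82 (−2.98 to −2.69) in MDA-MB468.

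SREBF2 followed INSIG1 in direction at smaller size in MDA-MB468, with a sum of 0.09 and a measured value of −0.35, a difference of −0.44 (−0.50 to −0.39), but in HCC70 the difference was −0.07 (−0.14 to −0.00). SREBF1 departed from the sum in opposite directions in the 2 lines, by 0.27 (0.16 to 0.39) in HCC70 and by −0.24 (−0.34 to −0.13) in MDA-MB468. For SCAP and MBTPS2 the difference from the sum had an interval that included 0 in both lines. INSIG2 gave 0.38 (0.00 to 0.76) in HCC70 and −0.24 (−0.53 to 0.04) in MDA-MB468, and MBTPS1 gave 0.03 (−0.08 to 0.14) and −0.15 (−0.24 to −0.06).

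**Figure D4:**
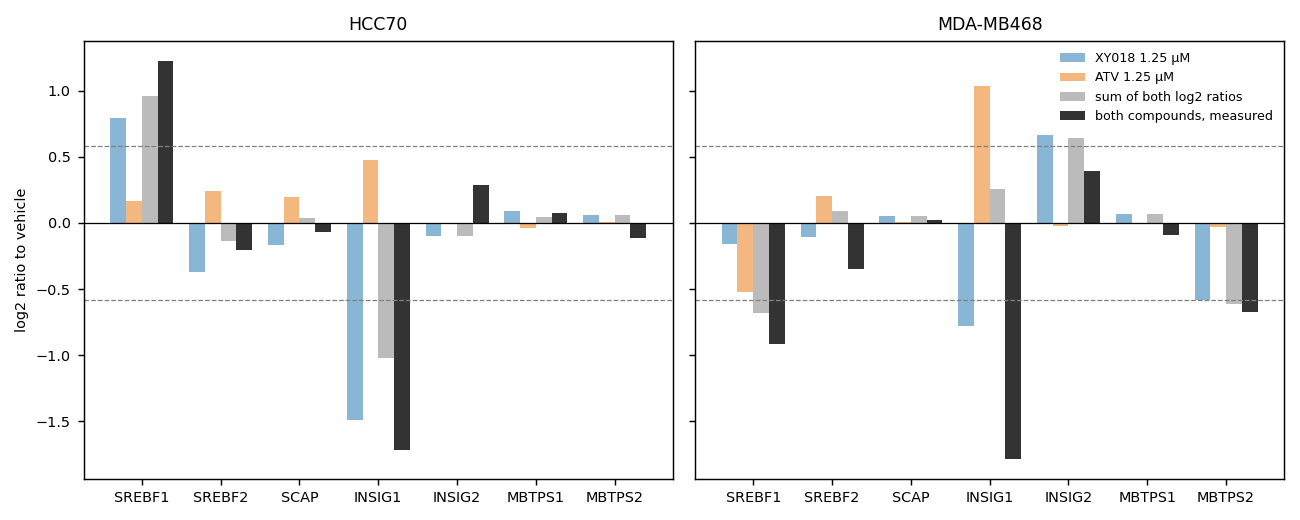
Log2 ratio to vehicle (vertical axis) of the 7 genes with XY018 at 1.25 μM, with ATV, their sum, and the value measured with both, in HCC70 and MDA-MB468; dashed lines mark 1.5-fold and the values are from 1 library each. For INSIG1 in MDA-MB468 the measured bar reaches −1.78 while the sum is 0.26, and for SREBF1 the bars of the 2 lines point in opposite directions.

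XY018 and GSK805 could be compared in MDA-MB468 at 2.5 μM and 24 h, over 7 pairs of values from separate experiments, each against its own vehicle. GSK805 gave the lower log2 ratio for 4 genes, with differences, GSK805 minus XY018, of −2.01 (−2.11 to −1.91) for SREBF1, −1.49 (−1.72 to −1.26) for INSIG1, −1.06 (−1.33 to −0.78) for INSIG2 and −0.25 (−0.32 to −0.17) for SREBF2. MBTPS2 went the other way, with GSK805 0.74 (0.32 to 1.16) above XY018. INSIG2 and MBTPS2, which passed 1.5-fold with XY018, did not with GSK805 against its own vehicle. Against the other vehicle INSIG2 did pass, at 1.38 as deposited and 0.80 relative to the median of all genes, and MBTPS2 gave −0.21 and −0.79, the second of which passed. For SCAP the difference was 0.12 (−0.04 to 0.27) and for MBTPS1 −0.04 (−0.15 to 0.06), intervals that include 0. These intervals are normal approximations on the log scale for counting error, and the compound cannot be told apart from the experiment. Set against the vehicle of the XY018 experiment as deposited, the difference between compounds became 0.17 for SREBF1 and 0.69 for INSIG2, reversed in both. For INSIG1 it was −0.53, in the same direction. These differences carry the offset between the experiments, a median of 0.58 over all genes. Relative to that median GSK805 gave −0.44 for SREBF1, below the −0.03 with XY018, so SREBF1 was then not reversed. INSIG2 gave 0.80, against 0.69 with XY018.

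The genes that SREBPs activate were read from lists of 13 SREBP-2 type and 9 SREBP-1 type targets. In HCC70, 12 of the 13 SREBP-2 type genes fell with XY018 at 1.25 μM and 13 of 13 at 2.5 μM and with both compounds, with medians of −1.42, −1.69 and −1.43. In MDA-MB468, 7, 11 and 12 of 13 fell, with medians of −0.59, −0.83 and −1.19, and GSK805 lowered 13 of 13 with a median of −1.67. None rose in any of these 7 comparisons. Of all genes, 2.66%, 3.26% and 2.94% were lower in the HCC70 comparisons, and 8.39%, 14.5%, 12.2% and 16.6% in those of MDA-MB468. With ATV 3 of 13 rose in HCC70 (median 0.32) and 10 of 13 in MDA-MB468 (0.80), and none fell. Of all genes 2.22% and 1.37% were higher with ATV in the 2 lines. The medians of all genes in the same comparisons were within 0.03 of 0.

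HMGCS1, the enzyme that makes HMG-CoA, fell in HCC70 from 16.1 to 3.88 FPKM with XY018 at 2.5 μM (−2.02). In MDA-MB468 the same dose took it from 57.1 to 15.6 FPKM (−1.87), and GSK805 took it from 138 to 20.5 (−2.75). With ATV the largest rises were those of MVD, a later enzyme of the mevalonate pathway, in HCC70 (0.77) and of HMGCS1 in MDA-MB468 (1.47, from 57.1 to 158 FPKM). INSIG1 thus lay below the median of the list in every comparison with an antagonist and above it with ATV, while SREBF2 lay nearer 0 than that median in all 9.

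The SREBP-1 type targets were more divided. In HCC70 3 of 9 fell and 1 rose at either dose of XY018, and 1 fell with both compounds, with medians of −0.26, −0.21 and −0.38, while SREBF1 itself rose in all 3. Of all genes there, 2.66%, 3.26% and 2.94% were lower, and 1.93% and 2.62% were higher at the 2 doses of XY018. In MDA-MB468 2, 5 and 7 of 9 fell, with medians of −0.41, −0.75 and −1.02, and GSK805 lowered 7 of 9 (−1.26). The shares of all genes that were lower in these 4 comparisons were 8.39%, 14.5%, 12.2% and 16.6%. ATV raised 1 of 9 in HCC70 (0.36) and 3 of 9 in MDA-MB468 (0.44), where 2.22% and 1.37% of all genes were higher. FASN, fatty acid synthase, fell in HCC70 from 79.2 to 43.9 FPKM at 2.5 μM XY018 (−0.85), in MDA-MB468 from 449 to 244 (−0.88) and with GSK805 from 1055 to 209 (−2.33). SCD, which makes monounsaturated fatty acids, was 0.21 in HCC70 and −0.54 in MDA-MB468 at 2.5 μM, neither past 1.5-fold, and fell with GSK805 from 259 to 33.4 FPKM (−2.95). The desaturase FADS2 moved most in HCC70, to −1.53 with XY018 at 2.5 μM and 0.78 with ATV, and the elongase ELOVL6 moved most in MDA-MB468 under the same treatments, to −1.71 and 1.16.

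**Figure D5:**
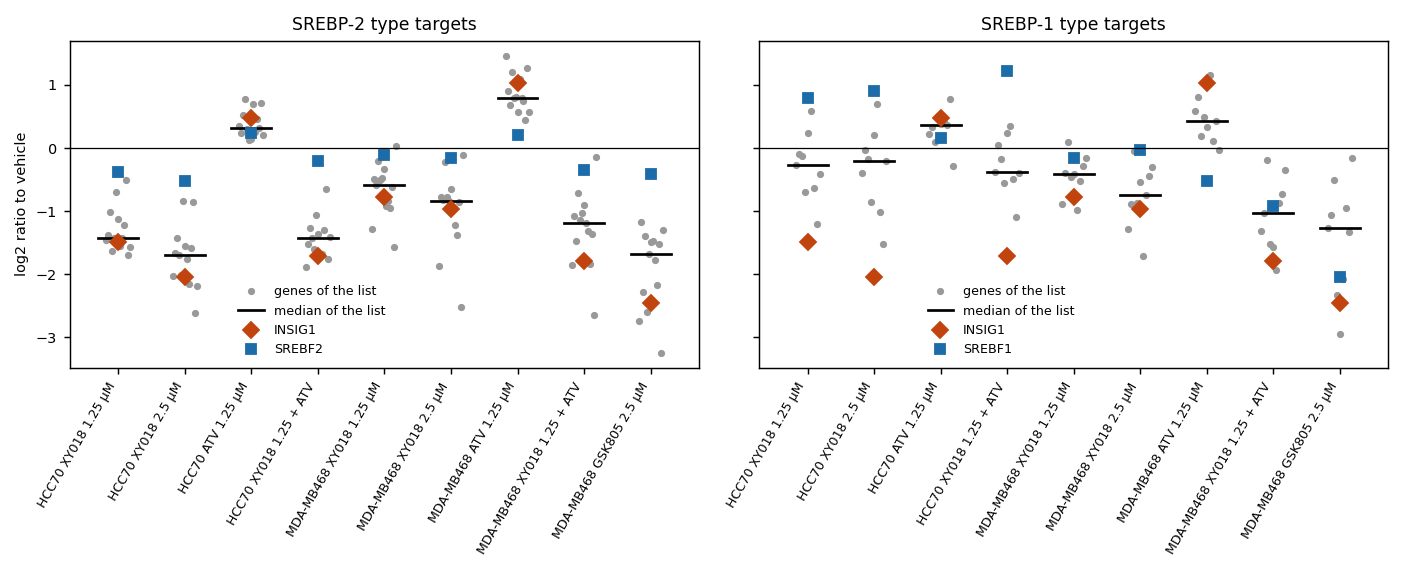
Log2 ratio to vehicle (vertical axis) of the 13 SREBP-2 type targets with INSIG1 and SREBF2 (left) and of the 9 SREBP-1 type targets with INSIG1 and SREBF1 (right) in the 9 comparisons; grey points are genes and black bars list medians. INSIG1 moves with the SREBP-2 type list, SREBF2 stays closer to 0, and in HCC70 SREBF1 is above the SREBP-1 type median with XY018.

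The liver X receptors (LXRs) are oxysterol-activated factors whose targets include SREBF1, in its SREBP-1c form, and the sterol exporters ABCA1 and ABCG1. ABCA1 rose in HCC70 from 2.22 to 24.3, 38.3 and 27.0 FPKM with the lower and higher dose of XY018 and with both (3.39, 4.05 and 3.55), and was 1.65 with ATV. ABCG1 rose from 1.34 to 22.6, 35.9 and 24.9 FPKM in the same libraries (3.98, 4.65 and 4.12). These 3 libraries are those in which SREBF1 rose. In the MDA-MB468 table, which was normalized separately, ABCA1 was at 0.24 FPKM with vehicle and at most 1.31, and ABCG1 at 1.14 with vehicle, 4.21 and 5.77 with XY018, 0.37 with ATV and 2.34 with both. The ABCG1 log2 ratios were 1.80, 2.24, −1.40 and 0.98, so it rose with both compounds while SREBF1 fell. With GSK805 ABCG1 fell from 2.16 to 0.857 FPKM (−1.24), and ABCA1 stayed below 1 FPKM. Of the 5 genes of this axis, 2 rose in HCC70 at either dose of XY018 and 3 with both compounds. Of all genes there, 1.93%, 2.62% and 4.39% were higher. With both compounds in MDA-MB468, 1 of the 4 compared rose, ABCG1, and 1 fell, MYLIP. Of all genes in that comparison 13.1% were higher and 12.2% lower. The receptors themselves changed by less than 1.5-fold. NR1H3 (LXRα) had log2 ratios from −0.19 to 0.41 and NR1H2 (LXRβ) from −0.10 to 0.58. MYLIP, an LXR target that encodes a ubiquitin ligase, had the largest ratio with ATV in HCC70 (−0.52, under 1.5-fold). In that line MYLIP rose with both compounds (0.70), and was 0.57 and 0.53 with XY018 alone, under 1.5-fold. In MDA-MB468 it fell with ATV (−0.96), with both compounds (−0.70), as SREBF1 did, and with GSK805 (−0.99).

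Partners of the 7 proteins were read from further lists, against all-gene backgrounds that were themselves larger in MDA-MB468. None of the 11 genes of the COPII coat, which carries SCAP and SREBPs out of the ER, passed 1.5-fold in HCC70. There 1.32 to 4.39% of all genes passed in a given direction, so such a count is near the background. In MDA-MB468, 6 of 11 rose at the lower dose of XY018, 5 at the higher dose and 5 with both compounds, with medians of 0.64, 0.56 and 0.48, where 9.73%, 14.1% and 13.1% of all genes were higher. SEC13 had the largest ratio at 2.5 μM, from 77.2 to 204 FPKM (1.40), and SEC24D the largest in HCC70 with XY018 (0.24) and with ATV (0.42). With GSK805 only SAR1B, the GTPase that starts coat assembly, passed, and it fell (−0.60), where 16.6% of all genes were lower. With ATV in MDA-MB468 PREB, the exchange factor for SAR1, had the largest ratio (−0.12). Of 14 genes of the ER machinery that degrades INSIG proteins, none passed in HCC70, against the same shares of all genes. The ubiquitin ligase SYVN1 rose from 52.5 to 117 FPKM in MDA-MB468 with XY018 at 2.5 μM (1.16), 1 of 4 that rose and 0 that fell there, where 14.1% of all genes were higher. GSK805 lowered 2 and raised 0, with UFD1, a cofactor of the p97 segregase, falling most (−1.03), a count near the 16.6% of all genes that were lower. RNF145, a ligase with a sterol-sensing region, had the largest ratio in HCC70 with XY018 (0.35), SYVN1 with ATV (0.50), and the conjugating enzyme UBE2G2 with ATV in MDA-MB468 (−0.17).

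Among 10 partners of nuclear SREBPs at most 1 passed in either direction in any comparison. With an antagonist in MDA-MB468, 8.39 to 17.6% of all genes passed in a given direction, so such a count is near the background there. In the other comparisons that share was 0.803 to 4.39%. LPIN1, a lipin that restrains nuclear SREBPs and is also an SREBP target, was −0.75 with XY018 at 2.5 μM in HCC70 and 0.93 with ATV in MDA-MB468. NFYB, a subunit of the CCAAT-binding factor NF-Y, fell from 10.0 to 5.54 FPKM with XY018 at 2.5 μM in MDA-MB468 (−0.84). FBXW7, which marks nuclear SREBPs for degradation, had the largest ratio with GSK805 (0.46) and with ATV in HCC70 (0.31), both under 1.5-fold. Other substrates of the site-1 protease include the ER stress factor ATF6 and CREB3. CREB3 and ATF6 were the 2 of 6 genes compared from that list that rose with XY018 in MDA-MB468, at either dose. Of all genes 9.73% and 14.1% were higher there. At 2.5 μM CREB3 went from 61.6 to 155 FPKM (1.33). GNPTAB of the same list fell at that dose (−0.60), where 14.5% of all genes were lower. ATF6 had the largest ratio with GSK805 (0.32), CREB3L1 in HCC70 with XY018 (0.85, from 1.92 to 3.53 FPKM) and with ATV (0.49), and CREB3L2 in MDA-MB468 with ATV (−0.14).

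For the 4 genes that passed 1.5-fold in at least 1 comparison, the genes with the most similar 9 log2 ratios were sought by root mean square difference among 7114 genes, as a description, since the ratios of an experiment share a vehicle. INSIG1 lay nearest to IDI1 (0.27), DHCR7 (0.30) and CYP51A1 (0.31), which all encode enzymes of cholesterol synthesis, where the median distance over the genes was 1.53. SREBF1 lay nearest to MYLIP (0.51), PFKFB3 (0.53) and MT2A (0.54), not far inside its median distance of 0.98. INSIG2 lay nearest to EML2 (0.10), NAGK (0.11) and TANGO2 (0.12), with a median distance of 0.45, and MBTPS2 to GTF2I, TMEM106C and NUP188 (each 0.08), with a median distance of 0.46.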

How the data were processed

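The series holds 12 RNA-seq libraries from a pair of TNBC lines, 1 for each condition. Per the labels and methods, libraries were made with the Illumina TruSeq RNA kit from total RNA, reads were mapped to GRCh37 (hg19), and BWA, Bowtie and Cufflinks were used, with versions not given in the sources used here. The authors deposited FPKM in 3 separately normalized tables. Their headers state no unit, and Cufflinks is the source of that reading. The strand setting of the counting is not stated, so overlapping antisense transcripts cannot be told apart. FPKM does not separate the transcripts of a gene.

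Log2 ratios to the vehicle of the same table were computed with 0.1 added, for genes at 1 FPKM or above in either library, with 1 entry per symbol (the one with the highest mean). No test was run. A change of exactly 1.5-fold counted as past the threshold. Depth was estimated as the value at which the implied fragments of weakly expressed genes lie nearest to whole numbers (174 to 980 genes per library, 58.9 to 85.1% within 0.15 of a whole number), with MANE Select transcript lengths of GENCODE release 44 on GRCh37 or, for the GSK805 table, those of genes with 1 transcript, and offsets up to 240 nt. The gene models of the authors may differ, so depths are approximate. Intervals are 95% Clopper-Pearson intervals of estimated fragments, or normal ones for differences of ratios. The steps were tested on simulated data. Promoters are RefSeq sequences on GRCh38.p14 and are used for their letters alone.

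The 7 genes, the gene lists and the naming rule were chosen with earlier results of these data known. The rule names the 7 genes, the main SREBP and LXR targets, of every other list the gene that moved furthest on the log2 scale in each of 5 comparisons (XY018 at 2.5 μM and ATV in each line, and GSK805), and the 3 genes nearest to each gene past 1.5-fold, among genes in all 3 tables at 5 FPKM or above in every vehicle. Some genes that the rule names are not reported here. ESR1, PGR, ERBB2, PTPRC, CD68 and COL1A1 are named as markers, the last 2 after their values were seen. The alternatives were pseudocounts of 1 and 0.01, rescaling to a median of 0, the sum of entries, a threshold of 2-fold, no filter or 5 FPKM, and the other vehicle for GSK805. Chosen after seeing the data were symbols in all 3 tables and the other vehicle with rescaling. Scripts ran in Python 3.11.15 with scipy 1.17.1, numpy 2.4.6, matplotlib 3.10.9 and pandas 2.3.3.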

Additional observations from a re-analysis of the deposited data

Results flagged for a closer look

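SREBF1 moved past 1.5-fold in opposite directions in the 2 cell lines when XY018 at 1.25 μM was combined with ATV. Its log2 ratio to vehicle was 1.23 in HCC70 and −0.92 in MDA-MB468. Each value comes from 1 treated and 1 vehicle library, so the difference between the lines was not tested.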

How the results depend on the processing

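At a threshold of 2-fold the number of the 7 genes that passed became 1 for either dose of XY018 in HCC70, 0 for either dose in MDA-MB468 and 1 for both compounds in MDA-MB468, in place of 2, 2, 3, 3 and 3. Against the vehicle of the XY018 experiment as deposited, GSK805 gave 0.14 in place of −2.04 for SREBF1. The difference between GSK805 and XY018 became 0.17 for SREBF1 and 0.69 for INSIG2. All 3 were reversed as deposited, where the median of all genes was 0.58. Other changes of sign, such as INSIG2 with GSK805 (1.38 in place of −0.37), are counted below as moved. With rescaling as well, 4 genes passed with GSK805 in place of 2: INSIG1 (−2.07) was joined by SREBF2 (−1.24), INSIG2 (0.80) and MBTPS2 (−0.79), while SREBF1 (−0.44) no longer passed. With that vehicle 84.1% of the genes past 1.5-fold were higher, in place of 51.6%. Of 392 values of single genes under the planned and added alternatives, 375 stayed within their counting intervals, and the 3 reversed and 14 that moved all came from the other vehicle, with or without rescaling. With a pseudocount of 1 MBTPS2 no longer passed in MDA-MB468 with XY018 at 1.25 μM or with both compounds. Over all genes the counts past 1.5-fold ran from 254 to 6826 over the 9 comparisons, from 55 to 3538 at 2-fold, from 1210 to 11757 without a filter, from 79 to 3744 at 5 FPKM, from 108 to 5539 with a pseudocount of 1, and up to 3296 for symbols in all 3 tables. No paired analysis was possible because the labels number no replicates and the values come from no test. A fit of line plus treatment, which would take the 2 lines as replicates of a treatment, was not run. Depth limits MBTPS2 and INSIG2 most, at 137 to 375 and 190 to 544 estimated fragments. The cause of these changes was not tested.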
